A study of Mus musculus with 12 samples.

Results

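The genes described here code for the core of the splicing machinery and for the proteins that steer it: 70 of the 35275 genes counted in bone marrow-derived macrophages (BMDMs) of wild-type mice. They were chosen by symbol and mean count, as the Srsf, Hnrnp, Snrnp, Snrpa to Snrpg, Sf3a, Sf3b and Lsm genes whose counts averaged 10 or more across the 12 libraries, and pseudogenes with a -ps symbol were left out. The choice was made with earlier results of these data known. The 70 fell into 6 families, namely 10 SR proteins, 20 hnRNPs, 11 Sm and U1/U2 snRNP proteins, 7 snRNP-specific proteins, 9 SF3A and SF3B subunits and 13 LSm proteins. Of the 74 symbols that matched, 2 were -ps pseudogenes and 2 lay under the minimum, Snrpf with a mean of 0.33 counts and Srsf12 with 0.58, while the lowest genes kept were Snrpert with 42.58 and Lsm5 with 106.75. Bone marrow cells had been cultured for 6 days with M-CSF, IL-4 and IL-10 together with DMSO (the solvent control), olaparib (an inhibitor of PARP enzymes) or MNA (methyl-nicotinamide, a derivative of NAD), with 4 libraries in each of the 3 groups. All 3 groups shared the genotype and the cytokines, the labels gave no dose of either compound, and they did not tie a library to a mouse. The comparisons ask which of these genes each compound moved away from DMSO and which of them separated the 2 compounds.

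Splicing removes introns in the spliceosome, which is assembled from snRNPs, each a small nuclear RNA wrapped by a ring of Sm or LSm proteins and joined by its own specific proteins. The SF3A and SF3B complexes belong to the U2 snRNP and hold the branch point of the intron. SR proteins bind exons and mostly favor their inclusion, hnRNPs coat the nascent RNA and often oppose it, and many genes of both kinds limit their own output by splicing part of their RNA into transcripts that are degraded by nonsense-mediated decay. One LSm ring sits on U6 snRNA in the nucleus, another opens the decay of cytoplasmic mRNA, and one more, which holds Lsm10 and Lsm11, belongs to the U7 snRNP that trims histone mRNA.

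In all 12 libraries between 21146291 and 31446849 reads were counted. The 7 macrophage markers summed to 3590 to 10200 CPM (counts in proportion to the library size, after TMM scaling of that size), whereas the B cell, T cell, stromal, megakaryocyte and mast cell lists stayed at or under 6.45 CPM each and the dendritic cell list at 17.4 to 26.3. Several lists moved with the groups: dividing-cell genes (10 genes, 5 of them higher with olaparib and 4 higher with MNA) summed to 326 to 399 CPM in DMSO, 487 to 600 in olaparib and 345 to 584 in MNA, and 3 eosinophil markers, 1 of them at no more than 3 counts in any library, summed to 3.78 to 6.95 CPM in DMSO and 30.5 to 58.2 CPM in olaparib, with 4.76 to 9.99 in MNA. Nearly all of the eosinophil sum was Siglecf, with means of 4.76 CPM in DMSO, 46.4 in olaparib and 7.33 in MNA. The other eosinophil markers, Prg2 and Epx, averaged 0 CPM in olaparib. MNA replicate 4 held 55.7 CPM of erythroid and 50.3 CPM of neutrophil markers. The macrophage list itself was at 3860 to 5000 CPM in DMSO, 8450 to 10200 in olaparib and 3590 to 7390 in MNA, with 4 of its genes higher and 1 lower with olaparib. The part that a change in cell types had in the results below was not tested. The library labeled MNA replicate 2 stood apart from the other 3 of its group and lay beside the DMSO libraries on the first 2 principal components of all genes. Its genes of alternative activation summed to 31700 CPM, against 942 to 1400 in the other MNA libraries and 32900 to 53300 in DMSO. From the files, a library under another library's label and one whose cells did not respond cannot be told apart. The MNA counts and the genes called with MNA are therefore given with and without it.

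Lower calls with olaparib took a larger share of the splicing genes than of all genes. By edgeR's quasi-likelihood test (Benjamini-Hochberg adjusted p under 0.05), 21 of the 70 genes were lower with olaparib than with DMSO and 2 were higher. That is 30.0% of these genes lower against 12.8% of the 12849 genes tested, and 2.86% higher against 14.3%. The median log2 fold change of the 70 genes was -0.13 while that of all genes was 0.00, and 48 of the 70 had a negative value. In 30 of the 70 genes every olaparib library lay under every DMSO library, and in 4 every one lay above, where 20.3% and 20.7% of all genes did so. The size of the change was small: the 21 genes fell by 0.19 to 0.66 on the log2 scale. In bulk RNA, fewer cells of a type and less RNA per cell cannot be told apart. MNA replicate 2 entered this comparison only through the shared estimate of the spread, the low-count filter and the scaling. Without it, 31 genes were lower (44.3%, background 21.2%) and 2 higher (2.86%, background 22.5%). The 21 lower and 2 higher genes all stayed called in that fit, including those whose calls were lost under other removals given below. Without DMSO replicate 3 or olaparib replicate 3, in contrast, 12 genes were lower (17.1%, where 7.85% and 8.35% of all genes were), and without DMSO replicate 4 or olaparib replicate 4, 13 were (18.6%, where 7.78% and 7.1% of all genes were). The 2 higher calls became 3 without MNA replicate 1, 1 without DMSO replicate 1, 3 or 4 or olaparib replicate 1, and 0 without DMSO replicate 2 or olaparib replicate 3 or 4, while 9.49% to 14.6% of all genes were higher in those fits.

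**Figure D1:**
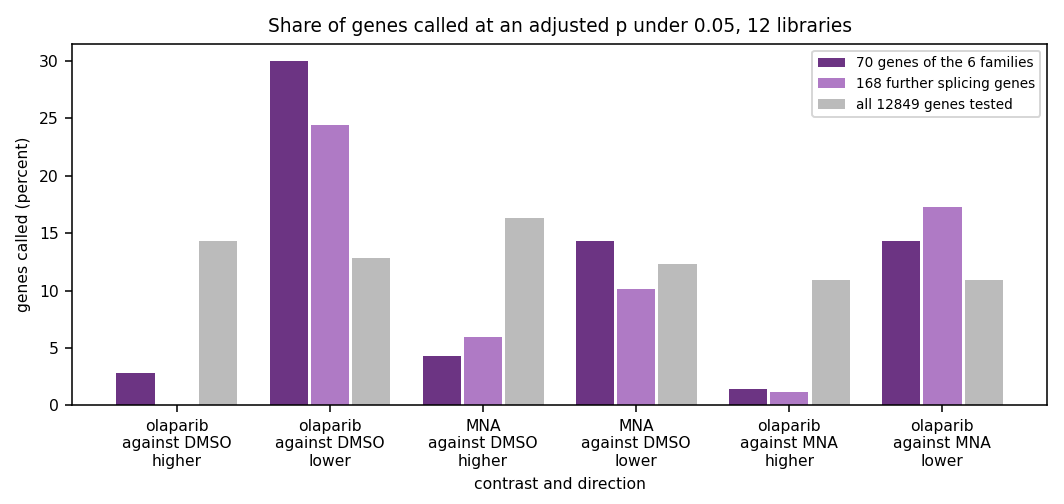
Percent of genes called at an edgeR adjusted p under 0.05 (vertical axis) in each contrast and direction (horizontal axis), for the 70 splicing genes, 168 further splicing genes and all 12849 genes tested. The lower calls of olaparib against DMSO are 30.0% and 24.4% for the splicing genes against 12.8% for all genes, while the higher calls are 2.86% and 0.

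With MNA fewer of these genes were called. On all 12 libraries 3 of the 70 genes were higher and 10 were lower than in DMSO, or 4.29% against a background of 16.3% and 14.3% against 12.3%, and the median log2 fold change was -0.05. The share of lower calls was thus near that of all genes. Leaving out MNA replicate 2 gave 25 lower (35.7%, background 26.9%) and 5 higher (7.14%, background 27.2%), and in 24 of those 25 and in all 5 the value of MNA replicate 2 was nearer to the DMSO mean than to the mean of the other MNA libraries. Leaving out DMSO replicate 1, 2, 3 or 4 gave 6, 3, 2 and 4 lower genes, where 8.0%, 3.25%, 2.38% and 4.0% of all genes were lower, and leaving out MNA replicate 1, 3 or 4 gave 2, 1 and 2, where 1.19%, 0.421% and 0.453% were. The shares of these genes in those 7 fits were 8.57%, 4.29%, 2.86% and 5.71%, then 2.86%, 1.43% and 2.86%. The 3 higher calls became 1 without DMSO replicate 3 or 4 and 0 without MNA replicate 1, 3 or 4, with 3.13% to 9.23% of all genes higher. A fit to the 8 libraries of MNA and DMSO alone called 0 of the 70 genes and 0 of all 12379 genes tested, although 14 of the 70 lay lower and 5 higher at an unadjusted p under 0.05. The MNA calls below are from the fit to all 12 libraries, which also estimates the spread from olaparib. DESeq2 on all 12 libraries called 14 lower (20.0%, background 15.7%) and 4 higher (5.71%, background 18.9%). In 5 of the 70 genes every MNA library lay under every DMSO library and in 1 above (backgrounds 6.12% and 6.24%), and without MNA replicate 2 in 27 and 4 (27.2% in each direction).

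**Figure D2:**
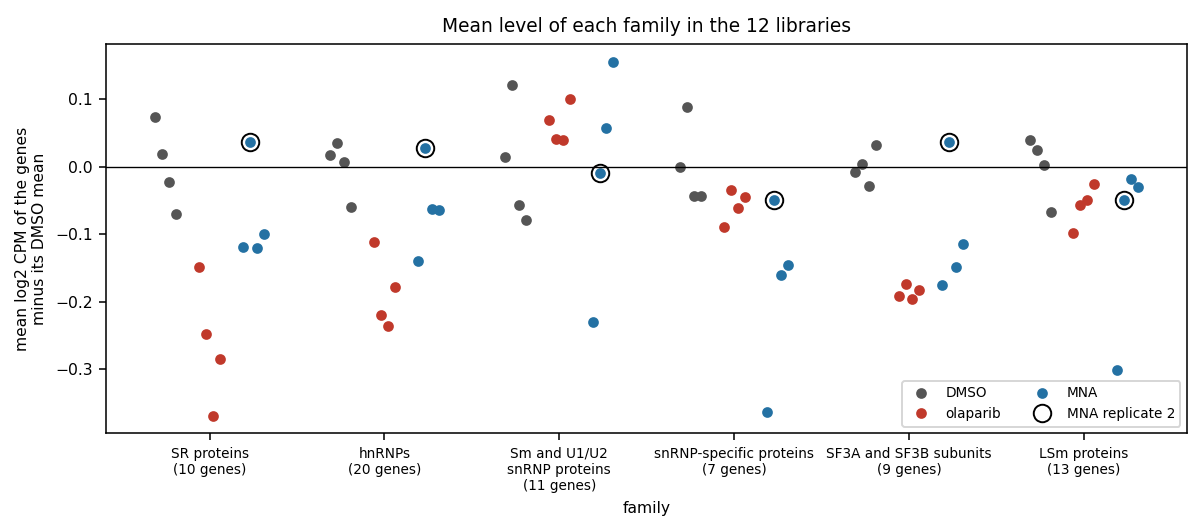
Mean log2 CPM of the genes of each family minus its mean over the DMSO libraries (vertical axis), for the 6 families (horizontal axis). Each point is 1 library, and MNA replicate 2 is ringed. The SR protein values are -0.369 to -0.148 in olaparib and -0.07 to 0.074 in DMSO, and MNA replicate 2 is at 0.037.

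The families differed in their calls. Averaged over their genes, SR proteins, hnRNPs and SF3 subunits lay lower in every olaparib library than in any DMSO library, as the plot of family means shows, whereas the Sm and U1/U2 proteins lay at 0.039 to 0.1 in olaparib, within the DMSO range of -0.079 to 0.121. MNA replicate 1 held the lowest LSm mean, -0.301, against -0.05 to -0.018 in the rest of its group, and also the lowest means of the Sm and the snRNP-specific proteins. Levels of the 70 genes differed widely. Per kilobase of annotated exon, the DMSO means ran from 0.83 CPM for Snrnp48 to 82.3 for Hnrnpk, and Hnrnpk (82.3 ± 3.62), Hnrnpf (81.9 ± 5.69), Snrpb (80.8 ± 6.11) and Hnrnpa0 (78.5 ± 4.59, SD, n = 4), the 4 highest, each differed from the next in that order by less than their SDs. Median coefficients of variation between libraries were 6.44% in DMSO, 5.14% in olaparib and 11.3% in MNA, or 7.81% in MNA without replicate 2.

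**Figure D3:**
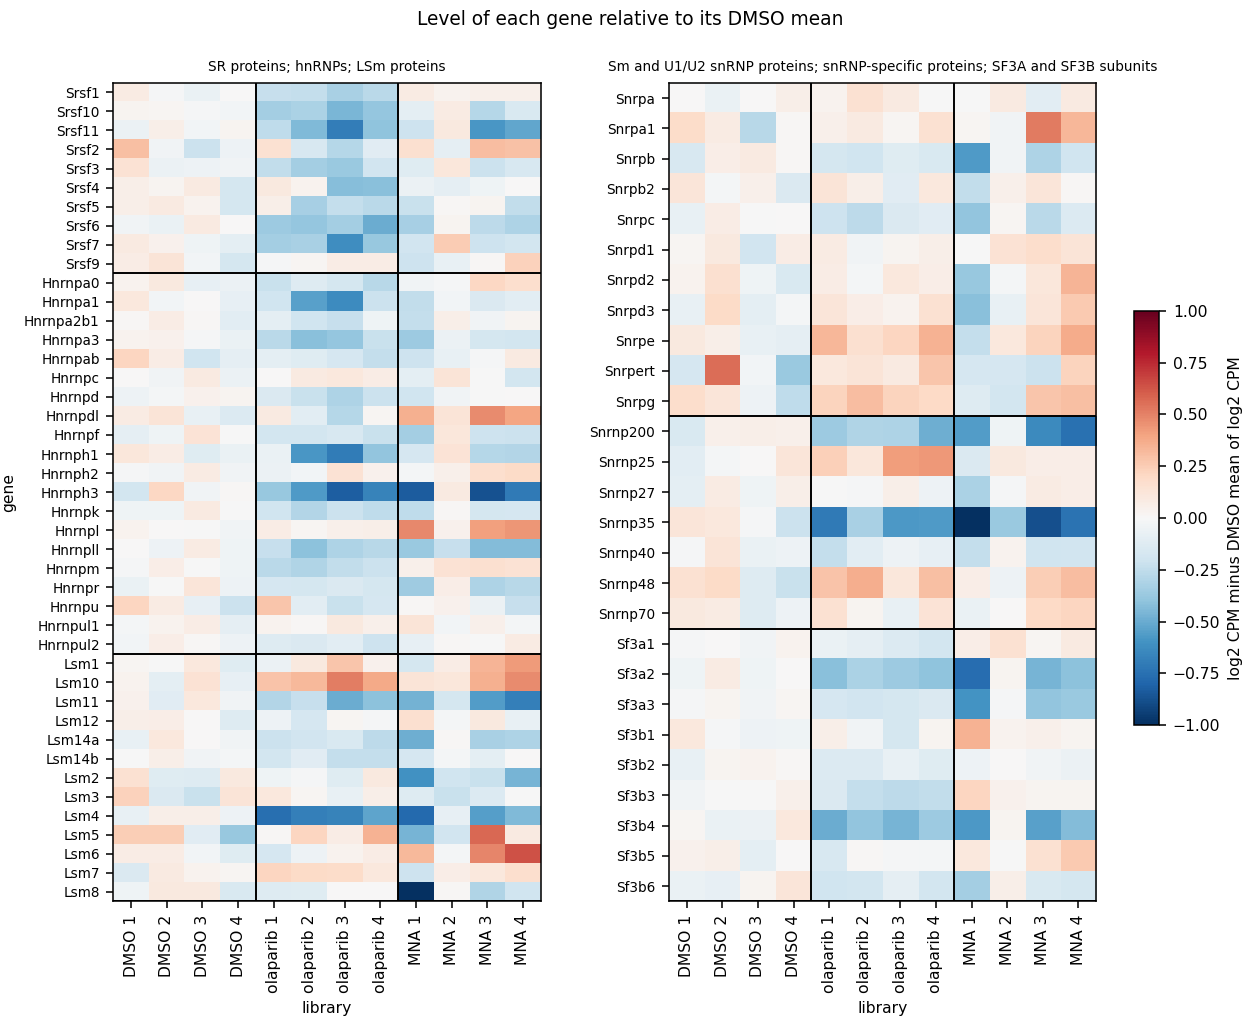
Heat map of the 70 genes (rows, by family) in the 12 libraries (columns), colored by log2 CPM minus the gene's DMSO mean, with values beyond 1 in either direction drawn in the end color. Blue runs through all 4 olaparib libraries for Lsm4, Sf3b4 and the SR proteins Srsf1, Srsf6, Srsf7, Srsf10 and Srsf11, and for Hnrnph3, Snrnp200 and Hnrnpl MNA replicate 2 is pale where the other MNA libraries are blue or red.

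Of the 10 SR proteins, 6 fell with olaparib and 0 rose (60.0% lower against 12.8% of all genes), at an unadjusted p under 0.05 and with DESeq2 as well. Between 4 and 7 of the 10 were lower with any single library left out, where 7.1% to 21.2% of all genes were. The 6 were Srsf1, Srsf3, Srsf6, Srsf7, Srsf10 and Srsf11, by 0.27 to 0.44 on the log2 scale, and the other 4 (Srsf2, Srsf4, Srsf5 and Srsf9) were not called, at -0.19 to 0.04. Srsf1 (ENSMUSG00000018379, chromosome 11), the founding member of the family and a binder of exonic enhancers, had 120.4, 113, 109 and 114 CPM in DMSO replicates 1 to 4, 96.9, 96.5, 91.0 and 94.7 in olaparib and 121, 116.5, 118 and 118 in MNA. All olaparib libraries lay under all others, and the MNA libraries lay among or just above the DMSO ones. The change with olaparib was -0.27 (SE 0.05, adjusted p = 0.00277), and it stayed called without any single library (adjusted p 0.000562 to 0.0119). With MNA it was 0.05 (95% confidence interval -0.05 to 0.16). Srsf11 (ENSMUSG00000055436, chromosome 3), an SR-related protein found with U2 auxiliary factor, had the largest fall, from 120.4, 131, 123 and 127.5 CPM in DMSO to 105, 92.5, 77.6 and 95 in olaparib (log2 fold change -0.44, SE 0.14, adjusted p = 0.0321). The 2 groups did not overlap, but the olaparib libraries were spread widely, and the call was lost without any one of DMSO replicates 2, 3 and 4 or olaparib replicates 2, 3 and 4 (adjusted p up to 0.0907).

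With MNA 0 SR proteins were called on all 12 libraries by edgeR, 1 lay lower at an unadjusted p under 0.05, and DESeq2 called 1, Srsf6. Srsf6 (ENSMUSG00000016921, chromosome 2), a regulator of alternative exons, had the smallest p, at 132, 169, 138 and 134 CPM in MNA against 162, 158.5, 176 and 166 in DMSO and 129, 127, 131 and 117 in olaparib. MNA replicate 2 lay inside the DMSO range and the other 3 under it. Its difference from DMSO was -0.21 (SE 0.08, adjusted p = 0.0608) with that library and -0.30 (SE 0.06, adjusted p = 0.000642) without it; with olaparib it was -0.40 (SE 0.08, adjusted p = 0.00463). With MNA replicate 2 left out, 5 of the 10 SR proteins were lower with MNA (50%, background 26.9%), namely Srsf3, Srsf6, Srsf7, Srsf10 and Srsf11. Both treatments are set against the same DMSO libraries.

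The start regions of 2 of the 6 SR genes are shown because these genes fell together and their windows hold no annotated exon of a protein-coding gene. Each is the 250 bases before the RefSeq start on GRCm38.p6, 5′ to 3′ on the strand of the gene, at chr11:88047123-88047372 (plus strand) for Srsf1 and chr2:162931258-162931507 (plus strand) for Srsf6. Capitals mark a GC box (GGGCGG or CCGCCC) or an ETS core (CCGGAA or TTCCGG) on either strand.
Srsf1: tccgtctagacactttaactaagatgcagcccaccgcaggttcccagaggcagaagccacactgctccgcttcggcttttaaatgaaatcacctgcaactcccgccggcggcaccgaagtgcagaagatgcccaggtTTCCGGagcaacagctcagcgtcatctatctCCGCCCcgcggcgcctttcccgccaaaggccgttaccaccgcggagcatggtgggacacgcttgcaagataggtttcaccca
Srsf6: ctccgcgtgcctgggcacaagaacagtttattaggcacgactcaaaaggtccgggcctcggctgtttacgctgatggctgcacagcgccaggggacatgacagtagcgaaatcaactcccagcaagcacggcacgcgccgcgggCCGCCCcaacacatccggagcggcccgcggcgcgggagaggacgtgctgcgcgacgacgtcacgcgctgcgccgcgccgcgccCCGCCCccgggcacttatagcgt
The Srsf1 window held 1 GC box and 1 ETS core, and 238 of its bases lay in exons of an antisense gene, 2010015M23Rik, while the Srsf6 window held 2 GC boxes and lay outside annotated genes. Of the 49 splicing genes with exactly 1 start in the table (59 had any), 73.5% held a GC box, 40.8% an ETS core and 26.5% the NRF1 core TGCGCA, against 32.7%, 12% and 6.43% of the 32851 windows of all genes. Among the 16 of them that olaparib lowered the shares were 68.8%, 31.2% and 37.5%. The other 4 motifs searched on both strands were the E-box CACGTG (4.08% against 6.02%), the YY1 core AAGATGG (2.04% against 4.49%), the CCAAT box (38.8% against 33.8%) and the TATA box TATAAA (10.2% against 12.4%). A match describes letters and not a bound site, and GC content differed as well, with a median of 60.4% in the 49 windows and 52.4% in all. The 32851 windows were not limited to genes tested here or to genes with 1 start. A matched set of expressed genes was not compared.

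Annotated transcripts show another feature that the choice by symbol did not use. Of the 70 genes, 41.4% had at least 1 GENCODE transcript classed as subject to nonsense-mediated decay, against 29.4% of the 11815 protein-coding genes tested, and among SR proteins 9 of 10 did. Counts per gene add all transcripts of a gene, so a shift between a coding and a decay-bound transcript was not visible here. Of the 21 genes lowered by olaparib, 11 had such a transcript (52.4%), and 18 of the other 49 did (36.7%).

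Of the 20 hnRNPs, 8 fell with olaparib and 0 rose (10 lower and 0 higher at an unadjusted p under 0.05, and DESeq2 called 10 and 0), or 40.0% lower against 12.8% of all genes. Without DMSO replicate 3, 4 of the 20 were lower (background 7.85%). Without DMSO replicate 4 or olaparib replicate 2, 3 or 4, 5 were (backgrounds 7.78%, 8.34%, 8.35% and 7.1%). Without MNA replicate 2, 12 were (60.0%, background 21.2%). The 8 were Hnrnpa1, Hnrnpa3, Hnrnpd, Hnrnph1, Hnrnph3, Hnrnpk, Hnrnpll and Hnrnpm, at -0.61 to -0.22 on the log2 scale. Hnrnph3 (ENSMUSG00000020069, chromosome 10), which binds runs of G, fell the most. Its values were 11.5, 15, 12.7 and 13.1 CPM in DMSO, 10.0, 8.80, 7.32 and 8.19 in olaparib and 7.28, 13.9, 7.10 and 7.96 in MNA. Each olaparib library lay under each DMSO library, and so did each MNA library but replicate 2, which sat at 13.9 CPM within the DMSO range. With olaparib the log2 fold change was -0.61 (SE 0.20, adjusted p = 0.0402), a call lost without any one of DMSO or olaparib replicates 2, 3 and 4 (adjusted p up to 0.105). With MNA it was -0.53 (adjusted p = 0.061), or -0.82 (adjusted p = 7.91e-05) without MNA replicate 2. Hnrnpd (ENSMUSG00000000568, chromosome 5), known as AUF1 and a binder of AU-rich mRNA, had the smallest called change. Its libraries read 45.1, 46.0, 48.1 and 47.5 CPM in DMSO and 42.2, 40.1, 37.7 and 40.2 in olaparib, which did not overlap (log2 fold change -0.22, SE 0.06, adjusted p = 0.0206), and the call was lost without DMSO replicate 3, DMSO replicate 4 or olaparib replicate 3 (adjusted p up to 0.0571).

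Hnrnpm was the splicing gene that separated the 2 compounds with the smallest p. Hnrnpm (ENSMUSG00000059208, chromosome 17), an abundant nuclear RNA binder that acts on alternative exons, had 149, 157, 149.6 and 145 CPM in DMSO, 125, 122, 127 and 129 in olaparib and 156, 165.5, 168 and 165.5 in MNA. Olaparib libraries were the lowest without overlap, and 3 of the 4 MNA libraries lay above all DMSO ones. It fell with olaparib against DMSO (log2 fold change -0.26, SE 0.05, adjusted p = 0.00357) and against MNA (log2 fold change -0.38, SE 0.05, adjusted p = 0.000304), while MNA against DMSO gave 0.12 (95% confidence interval 0.02 to 0.23, adjusted p = 0.0695), which DESeq2 called (adjusted p = 0.0209). The difference between the compounds held without any single library (adjusted p 7.46e-05 to 0.00249), and here MNA replicate 2, at 166 CPM, lay with its own group.

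Among the hnRNPs, Hnrnpl and Hnrnpdl rose with MNA. Hnrnpl (ENSMUSG00000015165, chromosome 7), which binds CA repeats, had 276, 204, 263 and 268 CPM in MNA against 203, 199, 197 and 193 in DMSO and 208, 201, 205 and 206 in olaparib. MNA replicate 2 lay just above the highest DMSO library and within the olaparib range, and the other 3 lay above both groups. The rise was 0.35 (SE 0.08, adjusted p = 0.0168), or 0.44 (SE 0.05, adjusted p = 4.77e-06) without MNA replicate 2, and it was lost without MNA replicate 1, 3 or 4 (adjusted p up to 0.0577). Olaparib against DMSO gave 0.05 with a 95% confidence interval of -0.13 to 0.23, and olaparib against MNA gave -0.30 (adjusted p = 0.0217, up to 0.0606 without olaparib replicate 2 or 3 or MNA replicate 1, 3 or 4). Hnrnpdl (ENSMUSG00000029328, chromosome 5), a relative of AUF1, had 68.2, 58.3, 73.9 and 70.1 CPM in MNA, 56.3, 58.3, 50.6 and 48.3 in DMSO and 56.7, 49.5, 43.7 and 54.0 in olaparib. All MNA libraries exceeded all olaparib ones (log2 fold change -0.41, SE 0.10, adjusted p = 0.0126), though MNA replicate 2 equaled the highest DMSO library to the digits shown. Against DMSO the rise was 0.34 (adjusted p = 0.0274), or 0.41 (adjusted p = 0.00135) without MNA replicate 2, and with any one of DMSO replicates 3 and 4 and MNA replicates 1, 3 and 4 left out it was not called (adjusted p up to 0.09).

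Hnrnpll, the paralog of Hnrnpl that represses variable exons of CD45 in lymphocytes, went the other way. Hnrnpll (ENSMUSG00000024095, chromosome 17) had 114, 110.4, 121 and 111 CPM in DMSO, 97.4, 85.7, 91.9 and 94.0 in olaparib and 88.3, 97.3, 84.5 and 84.6 in MNA. Every treated library, MNA replicate 2 included, lay under every DMSO library. The changes were -0.31 with olaparib (SE 0.06, adjusted p = 0.00514) and -0.36 with MNA (SE 0.06, adjusted p = 0.0142). The second was -0.41 (adjusted p = 4.01e-05) without MNA replicate 2, and it held without any single library (adjusted p 4.01e-05 to 0.0488) but not in the fit to MNA and DMSO alone (adjusted p = 0.064). On all 12 libraries edgeR called no other hnRNP lower with MNA, while the replicate block added Hnrnph3 (adjusted p = 0.0307) and DESeq2 added Hnrnph3 and Hnrnpa3. Once MNA replicate 2 was left out, 6 of the 20 hnRNPs were lower with MNA (30.0%, background 26.9%) and 2 were higher (10.0%, background 27.2%).

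**Figure D4:**
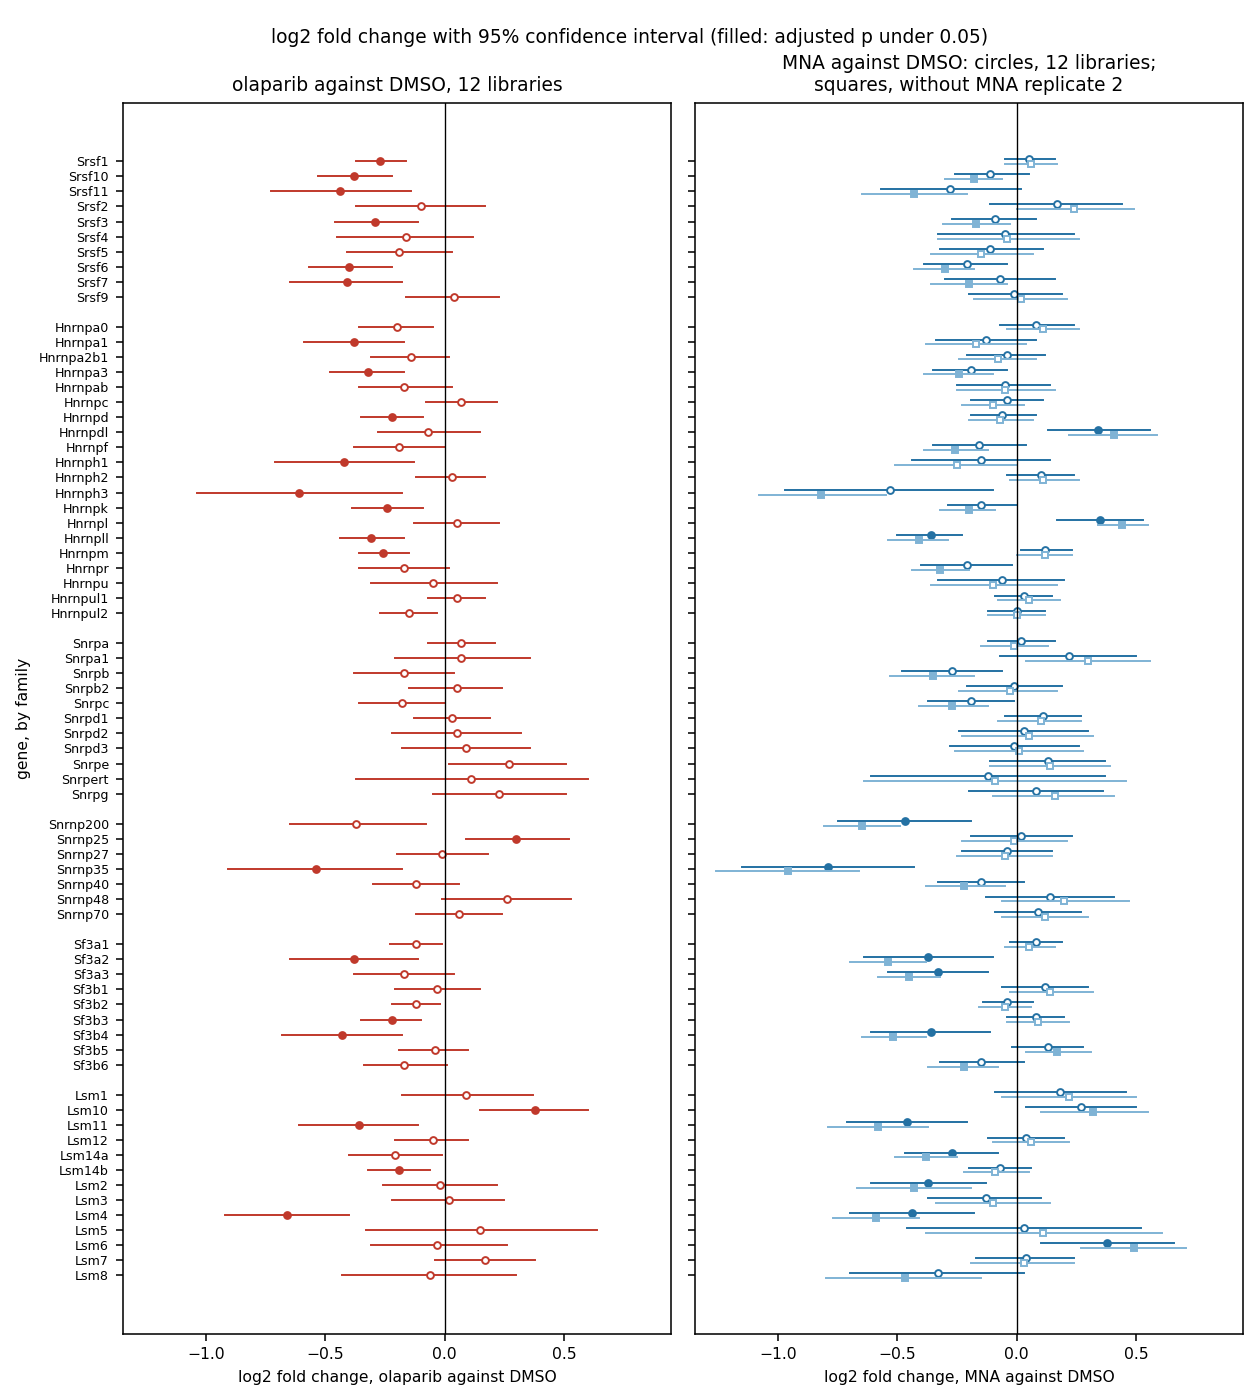
Log2 fold change (horizontal axis) of each of the 70 genes (vertical axis, by family) with its 95% confidence interval, for olaparib against DMSO (left) and MNA against DMSO (right, circles on 12 libraries and squares without MNA replicate 2). Filled symbols mark an adjusted p under 0.05; 23 are filled on the left, and 13 circles and 30 squares on the right.

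The ring of Sm proteins and the U1 and U2 proteins named with it held no called gene: 0 of the 11 passed edgeR's test in any of the 3 contrasts on all libraries without a replicate block, and the block added 1, Snrpb with MNA. At an unadjusted p under 0.05, 1 lay higher and 1 lower with olaparib, 2 lay lower with MNA and 0 differed between the compounds. DESeq2 called 1, lower with MNA. The fit to olaparib and DMSO alone called Snrpe higher (adjusted p = 0.0108) and Snrpb (adjusted p = 0.0286) and Snrpc lower. In that fit 22.9% of all genes were higher and 22.5% lower. Without MNA replicate 2, Snrpc was lower with olaparib (adjusted p = 0.0293) and with MNA (adjusted p = 0.00447), where 21.2% and 26.9% of all genes were lower. The 95% confidence intervals of Snrpe with olaparib (0.02 to 0.51) and of Snrpb with MNA (-0.48 to -0.06) give the size of change that these libraries leave room for. Snrpe (ENSMUSG00000090553, chromosome 1), 1 of the 7 Sm ring proteins, had the smallest p with olaparib, at 30.1, 26.8, 27.7 and 30.3 CPM against 25.6, 24.9, 22.7 and 22.4 in DMSO. The 2 groups did not overlap, the log2 fold change was 0.27 (SE 0.11, adjusted p = 0.0929), and the fit without MNA replicate 1 called it (adjusted p = 0.0295). Snrpb (ENSMUSG00000027404, chromosome 2), which makes the SmB ring protein, had 108, 156, 129 and 139 CPM in MNA against 142.5, 167, 169 and 160.4 in DMSO. The groups overlapped through DMSO replicate 1 and MNA replicate 2. Its change with MNA was -0.27 (SE 0.10, adjusted p = 0.056), and it was called without MNA replicate 2 (-0.35, adjusted p = 0.00263) or without DMSO replicate 1. DESeq2 (adjusted p = 0.0335) and the replicate block (adjusted p = 0.0356) called it as well. Snrpf could not be followed: 85.4% of its exon bases overlapped genes on the other strand, and it and its neighbor Ccdc38 had at most 4 counts in any library.

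Among the 7 snRNP-specific proteins, 2 of the same particle went in opposite directions with olaparib. Both belong to the U11/U12 di-snRNP, which recognizes the rare minor-class introns. Snrnp35 (ENSMUSG00000029402, chromosome 5), one of its specific proteins, had 16.6, 16.5, 15.2 and 13.2 CPM in DMSO, 9.36, 12.2, 10.3 and 10.3 in olaparib and 6.25, 11.9, 8.30 and 9.17 in MNA. All 8 treated libraries lay under all 4 DMSO libraries. It fell by 0.54 with olaparib (SE 0.17, adjusted p = 0.0306) and by 0.79 with MNA (SE 0.17, adjusted p = 0.0144) on the log2 scale. The first call did not survive the removal of any one of DMSO replicates 1, 2 and 3 or olaparib replicates 1, 3 and 4 (adjusted p up to 0.0787), nor did the second survive that of MNA replicate 3 (adjusted p = 0.0505). The MNA value was -0.96 (adjusted p = 5.28e-05) without MNA replicate 2. Snrnp25 (ENSMUSG00000040767, chromosome 11), another, had 10.8, 11.5, 11.7 and 12.7 CPM in DMSO, 13.7, 12.6, 15.5 and 15.7 in olaparib and 10.5, 12.4, 12.2 and 12.1 in MNA. The highest DMSO library overlapped the lowest olaparib library. The rise with olaparib was 0.30 (SE 0.10, adjusted p = 0.0361), lost without DMSO replicate 1, 2 or 3 or olaparib replicate 1, 3 or 4 (adjusted p up to 0.0993), and MNA gave 0.02 (95% confidence interval -0.19 to 0.23).

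Snrnp200 was the other snRNP-specific gene lowered by MNA. Snrnp200 (ENSMUSG00000003660, chromosome 2) makes the helicase BRR2, which unwinds U4 from U6 RNA before catalysis. Its values were 233, 269, 269.5 and 268 CPM in DMSO, 202, 210.5, 209.7 and 185 in olaparib and 176, 252, 167 and 154 in MNA. MNA replicates 1, 3 and 4 lay under every library of the other groups and MNA replicate 2 lay within the DMSO range. The change with MNA was -0.47 (SE 0.13, adjusted p = 0.0241) with MNA replicate 2 and -0.65 (SE 0.07, adjusted p = 5.51e-06) without it, and the call was lost without any one of DMSO replicates 2, 3 and 4 or MNA replicates 1, 3 and 4 (adjusted p up to 0.0758). With olaparib, whose libraries all lay under the DMSO ones, it was -0.37 (adjusted p = 0.0532), and it was called with a replicate block (adjusted p = 0.0362), by DESeq2 and without MNA replicate 2 (adjusted p = 0.000604) or 4. Snrnp27, Snrnp40, Snrnp48 and Snrnp70 were not called with either compound on all libraries.

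All 9 SF3A and SF3B subunits had a negative value with olaparib, -0.43 to -0.03, and 3 were called (33.3%, against 12.8% of all genes): Sf3b4, Sf3a2 and Sf3b3. Without DMSO replicate 4, 1 was called (background 7.78%), and without MNA replicate 2, 6 were (66.7%, background 21.2%). Sf3b4 (ENSMUSG00000068856, chromosome 3), the subunit that contacts RNA just before the branch point, had 154, 146, 146 and 164 CPM in DMSO, 108, 116, 110.1 and 118.5 in olaparib and 102, 155, 105 and 113 in MNA. Olaparib libraries and MNA replicates 1, 3 and 4 lay under all DMSO libraries. It fell with olaparib (log2 fold change -0.43, SE 0.11, adjusted p = 0.0174, lost without DMSO replicate 4 at an adjusted p of 0.0507), and with MNA (-0.36, adjusted p = 0.0367). The MNA call did not hold without any one of the DMSO libraries, olaparib replicates 2 and 3 or MNA replicates 1, 3 and 4 (adjusted p up to 0.109), and was -0.52 (adjusted p = 1.12e-05) without MNA replicate 2. Of the 31-base words in its annotated exons, 51.2% also occurred in another gene, and the effect on its counts was not measured. Sf3b3 (ENSMUSG00000033732, chromosome 8), a scaffold of the SF3B complex, behaved otherwise. It read 123, 125.5, 125 and 130.0 CPM in DMSO, 114, 107, 105 and 106 in olaparib and 146.5, 130.0, 128 and 128 in MNA. The olaparib libraries lay below both other groups (log2 fold change -0.22, SE 0.06, adjusted p = 0.0151 against DMSO, and -0.30 with an adjusted p of 0.00343 against MNA), and both calls held without any single library. Against DMSO, MNA gave 0.08 (95% confidence interval -0.04 to 0.20).

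Of the 3 SF3A subunits, which join SF3B on the U2 snRNP, MNA lowered Sf3a2 and Sf3a3. Sf3a2 (ENSMUSG00000020211, chromosome 10) had 68.0, 73.9, 68.0 and 70.2 CPM in DMSO, 52.4, 56.1, 54.3 and 52.8 in olaparib and 41.3, 71.5, 50.7 and 52.7 in MNA. Sf3a3 (ENSMUSG00000028902, chromosome 4) had 40.8, 41.9, 40.0 and 41.5 CPM in DMSO, 36.5, 35.9, 36.4 and 37.0 in olaparib and 27.1, 40.6, 31.3 and 31.7 in MNA. In both genes MNA replicate 2 lay with DMSO and the other MNA libraries lay under every DMSO library. Sf3a2 fell with olaparib (-0.38, adjusted p = 0.0423) and with MNA (-0.37, adjusted p = 0.0437), but the MNA call was lost on leaving out any library other than MNA replicate 2 (adjusted p up to 0.111), and the olaparib call on leaving out any DMSO or olaparib library or MNA replicate 4 (adjusted p up to 0.0988). Sf3a3 fell with MNA (-0.33, SE 0.10, adjusted p = 0.0297), a call lost without any single DMSO library or MNA replicate 1, 3 or 4 (adjusted p up to 0.0839), and with olaparib gave -0.17 (adjusted p = 0.203). All 4 olaparib libraries of Sf3a3 lay under all DMSO libraries, and olaparib against DMSO was called without MNA replicate 2 (adjusted p = 0.0225), without it under a replicate block (adjusted p = 0.0282) and in the fit to these 2 groups alone (adjusted p = 0.0119). Without MNA replicate 2 the MNA values were -0.54 for Sf3a2 (adjusted p = 3.68e-05) and -0.45 for Sf3a3 (adjusted p = 3.07e-05).

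The largest fall with olaparib of all 70 genes was that of Lsm4. Lsm4 (ENSMUSG00000031848, chromosome 8) is part of both the nuclear and the cytoplasmic LSm ring. Its values were 43.3, 47.3, 47.5 and 44.0 CPM in DMSO, 27.0, 28.3, 28.6 and 31.5 in olaparib and 26.5, 43.0, 31 and 33.4 in MNA. All treated libraries lay under all DMSO libraries, MNA replicate 2 by the smallest margin. With olaparib the log2 fold change was -0.66 (SE 0.12, adjusted p = 0.00291), called without any single library (adjusted p 1.29e-05 to 0.0115), and with MNA it was -0.44 (SE 0.12, adjusted p = 0.0232), a call that needed each of DMSO replicates 2 and 3 and MNA replicates 1, 3 and 4 (adjusted p up to 0.0708) and was -0.59 (adjusted p = 3.61e-05) without MNA replicate 2. None of the 7 other ring proteins, Lsm1 to Lsm3 and Lsm5 to Lsm8, was called with olaparib, at -0.06 to 0.17 on the log2 scale, whereas with MNA Lsm2 was lower and Lsm6 higher, with MNA replicate 2 and without it. The Lsm2 call was lost without any single DMSO library or MNA replicate 1, 3 or 4. Lsm6 (ENSMUSG00000031683, chromosome 8), also in both rings, had 12.1, 9.56, 13.6 and 15.1 CPM in MNA against 10.2, 10.2, 9.52 and 8.89 in DMSO and 8.62, 9.35, 9.93 and 10.2 in olaparib. MNA replicates 1, 3 and 4 lay above all other libraries (log2 fold change 0.38, SE 0.13, adjusted p = 0.0465), but the call was lost on leaving out any library other than MNA replicate 2 (adjusted p up to 0.144), and under the replicate block (adjusted p = 0.064). It was 0.49 (adjusted p = 0.0011) without MNA replicate 2.

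The 2 proteins of the U7 ring diverged with olaparib. Lsm10 (ENSMUSG00000050188, chromosome 4) rose, with 9.75, 8.91, 10.6 and 9.02 CPM in DMSO, 11.7, 11.9, 13.6 and 12.4 in olaparib and 10.4, 10.3, 12.2 and 13.3 in MNA. Every olaparib library lay above every DMSO library (log2 fold change 0.38, SE 0.11, adjusted p = 0.0215), with the call lost without DMSO replicate 2 or 4 or olaparib replicate 3 or 4 (adjusted p up to 0.0651). Its partner Lsm11 (ENSMUSG00000044847, chromosome 11) fell with both compounds, from 14.8, 13.3, 15.5 and 14.0 CPM in DMSO to 11.7, 12.3, 10.2 and 10.8 in olaparib and 10.3, 12.8, 9.73 and 8.93 in MNA. No treated library reached the DMSO range. The changes were -0.36 with olaparib (adjusted p = 0.0368) and -0.46 with MNA (adjusted p = 0.0192), and the MNA call was lost without DMSO replicate 3 or MNA replicate 1, 3 or 4 (adjusted p up to 0.0637) and was -0.58 (adjusted p = 0.000207) without MNA replicate 2. The olaparib call did not hold without any one of the DMSO libraries or olaparib replicates 1, 3 and 4 (adjusted p up to 0.0978). The remaining calls of the family were Lsm14b, lower with olaparib, and Lsm14a, lower with MNA with and without MNA replicate 2, both homologs of a P-body protein. The Lsm14b call was lost without any single DMSO library or olaparib replicate 1, 3 or 4, and with upper-quartile scaling. The Lsm14a call was lost on leaving out any library other than MNA replicate 2. Neither gene was called with no low-count filter.

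**Figure D5:**
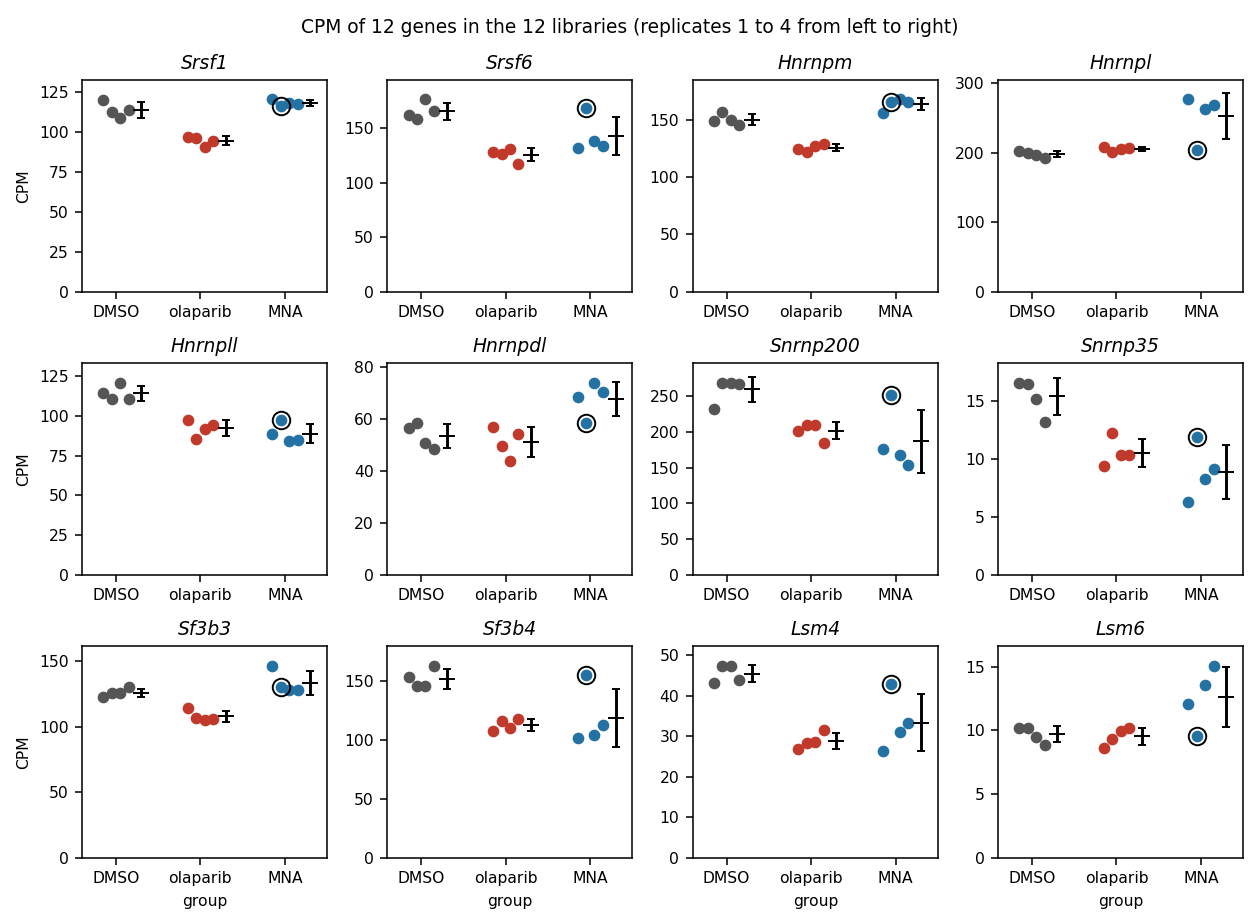
CPM (vertical axis, from 0) of 12 of the named genes in the 3 groups (horizontal axis). Points are the 4 libraries, bars the mean ± SD, and MNA replicate 2 is ringed. Srsf1, Hnrnpm and Sf3b3 are low in olaparib alone, Hnrnpll, Snrnp35 and Lsm4 are low with both compounds, and Hnrnpl, Hnrnpdl and Lsm6 are high in MNA, mostly without replicate 2.

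Set against each other, olaparib and MNA differed in 11 of the 70 genes: 10 were lower with olaparib (14.3%, background 10.9%) and 1, Lsm2, was higher (1.43%, background 10.9%). The 10 were Hnrnpdl, Lsm6, Hnrnpm, Srsf7, Srsf1, Hnrnpl, Sf3b3, Hnrnpa0, Srsf10 and Sf3a1, at -0.41 to -0.20 on the log2 scale. For the 4 with the smallest p the mean levels in olaparib and MNA were 126 ± 3.17 and 164 ± 5.35 CPM for Hnrnpm, 94.8 ± 2.69 and 118 ± 1.71 for Srsf1, 108 ± 4.19 and 133 ± 8.95 for Sf3b3 and 51.0 ± 5.69 and 67.6 ± 6.67 for Hnrnpdl (SD, n = 4). Srsf1 gave a log2 fold change of -0.32 between the compounds (SE 0.05, adjusted p = 0.000865), and these 4 calls held without any single library. Without MNA replicate 2, 12 genes were lower (17.1%, background 20.7%) and 9 higher (12.9%, background 21.5%), so lower calls outnumbered higher ones by less. The 9 included Snrnp200, Snrnp35, Sf3a3, Lsm2 and Lsm8, which MNA had brought lower than olaparib had. Without olaparib replicate 3, 6 genes were lower (8.57%, background 7.24%). The higher call of Lsm2 was lost on removal of any one library other than DMSO replicate 1 and MNA replicate 2. Without olaparib replicate 2, Snrnp25 was called higher in its place.

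A wider list of 168 tested splicing genes gave the surroundings of the 6 families. Olaparib lowered 41 of them (24.4%) and raised 0, with 67 lower and 4 higher at an unadjusted p under 0.05 and 50 lower and 1 higher by DESeq2, and the median log2 fold change was -0.13, where 12.8% of all genes were lower and 14.3% higher. The DESeq2 shares of the list were 29.8% lower and 0.595% higher, against 15.2% and 16.8% of all genes. Without DMSO replicate 2, 3 or 4 the lower calls were 23, 25 and 20, and without olaparib replicate 2, 3 or 4 they were 24, 23 and 19, or 11.3% to 14.9% of the list where 7.1% to 8.35% of all genes were lower. They were 64 without MNA replicate 2 (38.1%, background 21.2%), with 7 higher (4.17%, background 22.5%). A fit with no low-count filter called 26 lower (15.5%, background 6.17%) and 0 higher (background 7.55%). One to the 2 groups alone called 66 lower (39.8%, background 22.5%) and 6 higher (3.61%, background 22.9%). MNA lowered 17 (10.1%, background 12.3%) and raised 10 (5.95%, background 16.3%), both shares under those of all genes. With MNA replicate 2 left out it lowered 51 (30.4%, background 26.9%) and raised 24 (14.3%, background 27.2%). With DMSO replicate 1, 2, 3 or 4 left out, 10, 3, 5 and 3 of the list were lower with MNA and 7, 3, 2 and 3 higher. The lower shares were 5.95%, 1.79%, 2.98% and 1.79%, where 8.0%, 3.25%, 2.38% and 4.0% of all genes were lower. The higher shares were 4.17%, 1.79%, 1.19% and 1.79%, where 12.5%, 7.11%, 7.1% and 9.23% of all genes were higher. Removal of MNA replicate 1 gave 2 lower and 2 higher (1.19% each), and that of MNA replicate 3 or 4 gave 0 of each by edgeR (20 and 21 lower and 13 higher in each at an unadjusted p under 0.05), as did the fit to MNA and DMSO alone (23 lower and 15 higher). Of all genes, 1.19%, 0.421% and 0.453% were lower and 5.31%, 3.13% and 3.41% higher without MNA replicate 1, 3 and 4. DESeq2 on all libraries called 23 lower (13.7%, background 15.7%) and 13 higher (7.74%, background 18.9%) with MNA. By role, olaparib lowered 7 of 15 U2 auxiliary and branch point factors, 10 of 40 tri-snRNP and Prp19 proteins, 12 of 46 regulators of alternative splicing, 4 of 16 genes of the SMN complex and Sm methylation, 3 of 10 SR kinases and phosphatases, 2 of 24 exon junction and export factors, 2 of 8 decay partners of the LSm ring and 1 of 9 minor spliceosome proteins. Set beside the 12.8% of all genes, the exon junction and export factors (8.33%) and the minor spliceosome proteins (11.1%) lay under that share and the other 6 roles above it, at 25.0% to 46.7%.

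Gemin5 (ENSMUSG00000037275, chromosome 11), the SMN complex protein that recognizes snRNAs, had the smallest p with olaparib, at 21, 20.5, 20.1 and 19.3 CPM against 29.6, 26.6, 26.3 and 27.1 in DMSO and 28.5, 29.5, 28.9 and 28.8 in MNA (log2 fold change -0.44, SE 0.06, adjusted p = 0.000565). Sfpq (ENSMUSG00000028820, chromosome 4), a paraspeckle protein, had 136, 125.5, 119.8 and 123 CPM in olaparib, 174, 163, 155 and 166 in DMSO and 170.1, 165, 159 and 168 in MNA (log2 fold change -0.38, SE 0.06, adjusted p = 0.000972). Tardbp (ENSMUSG00000041459, chromosome 4), which makes TDP-43, a repressor of cryptic exons, had 109, 98.3, 87.3 and 96.7 CPM in olaparib, 171.5, 191, 169 and 188 in DMSO and 116, 202, 128 and 142 in MNA (log2 fold change -0.88, SE 0.14, adjusted p = 0.00178). In all 3 genes the olaparib libraries lay under all others, and the calls held without any single library. The fall of Tardbp, by 0.88 on the log2 scale, was larger than that of any of the 70 genes with olaparib.

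With MNA the 3 smallest p-values of the list were those of Phax, Usp39 and Mbnl2. Phax (ENSMUSG00000008301, chromosome 18), the adaptor that exports new snRNAs, rose, with 31.7, 23.6, 32.4 and 32.6 CPM in MNA against 22.5, 22.2, 22.0 and 20.8 in DMSO (log2 fold change 0.46, SE 0.10, adjusted p = 0.0147). Usp39 (ENSMUSG00000056305, chromosome 6), needed to join the tri-snRNP to the spliceosome, had 38.5, 44.2, 37.1 and 37.8 CPM in MNA, 38.6, 41.2, 36.0 and 39.2 in olaparib and 48.0, 48.9, 47.1 and 52.0 in DMSO (log2 fold change -0.31, SE 0.07, adjusted p = 0.0154). Mbnl2 (ENSMUSG00000022139, chromosome 14), a muscleblind regulator of exon choice, had 154, 187.5, 163 and 148 CPM in MNA against 208, 192, 204 and 213 in DMSO and 204, 198, 209 and 208 in olaparib (log2 fold change -0.33, SE 0.07, adjusted p = 0.0158). MNA replicate 2 was the MNA library nearest to DMSO in all 3, and each call was lost without MNA replicate 3 or 4 (adjusted p up to 0.0522 for Phax, 0.0543 for Usp39 and 0.0538 for Mbnl2). Without MNA replicate 2 the changes were 0.56 (adjusted p = 9.95e-06) for Phax, -0.38 (adjusted p = 0.000115) for Usp39 and -0.40 (adjusted p = 5.12e-05) for Mbnl2.

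Sequence shared with gene copies or with overlapping genes could bear on some of these counts. In 48 of the 70 genes at most 10% of the 31-base exon words recurred in another gene and at most 10% of exon bases overlapped another gene. Among those 48, olaparib lowered 13 (27.1%, background 12.8%) and raised 2 (4.17%, background 14.3%), and MNA lowered 8 (16.7%, background 12.3%) and raised 3 (6.25%, background 16.3%). In the fit without MNA replicate 2 olaparib lowered 22 (45.8%, background 21.2%), and MNA lowered 18 (37.5%, background 26.9%) and raised 5 (10.4%, background 27.2%). The 13 fell to 6 or 7 without DMSO replicate 2, 3 or 4 or olaparib replicate 3 or 4, and the 8 to between 1 and 4 with any one of DMSO replicates 2, 3 and 4 and MNA replicates 1, 3 and 4 left out. In those fits 7.1% to 8.35% of all genes were lower with olaparib and 0.421% to 4.0% lower with MNA. The 2 raised by olaparib became 0 or 1 without any single DMSO library or olaparib replicate 1, 3 or 4, and the 3 raised by MNA became 0 or 1 with any one of DMSO replicates 3 and 4 and MNA replicates 1, 3 and 4 left out. There 9.49% to 12.5% of all genes were higher with olaparib and 3.13% to 9.23% higher with MNA. The genes over that limit included Hnrnpf (66.2% of words), Sf3b4 (51.2%), Srsf4 (41.0%), Hnrnpa1 (29.9%) and Snrpert (71.5%, annotated as a processed pseudogene). Their counts are less certain, but a share of words is not a share of reads, and the effect on the counts was not measured. Of the genes given by library, Snrpe (13.8%), Sf3a2 (18.3%), Hnrnpm (14.0%), Tardbp (23.8%) and Phax (11.0%) also shared over 10% of their words. Words were matched on both strands, so overlapping exons count among them. Exon bases of Srsf4 (43.0%), Tardbp (23.3%), Sf3a2 (16.1%) and Phax (13.5%) overlapped genes on the other strand. Those of Hnrnpm (14.7%) overlapped a gene on the same strand.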

How the data were processed

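RNA of 12 BMDM samples, 4 per group, had been sequenced from stranded mRNA libraries. The authors aligned single-end reads to GRCm38.p5 with STAR 2.5.2b and deposited unscaled counts of reads for each Ensembl gene. Which strand was counted was not given in the sources used here. Gene names, exons and overlaps came from GENCODE M21, and start regions from RefSeq (GRCm38.p6).

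Counts were tested with edgeR 4.0.16 in R 4.3.3 (filterByExpr with a minimum count of 10, TMM scaling, quasi-likelihood F test, all 12 libraries, Benjamini-Hochberg over 12849 genes). In simulated counts with 200 genes changed by 1.5 on the log2 scale, the fit recovered 191 of them and made 16 false calls. Smaller changes, such as those called here, were not simulated. CPM used TMM-scaled library sizes. Depth of 21146291 to 31446849 counts per library sets the counting error. DESeq2 1.42.0, 2 other scalings, no low-count filter, a replicate block, 2 groups alone and each library left out served as alternatives. The deviations of same-numbered DMSO and olaparib libraries from their group means correlated (r = 0.227, 0.172, 0.225 and 0.408). Differently numbered libraries were not compared. The main fit did not pair libraries, and the replicate block, which does, was only an alternative. For DMSO and MNA r was 0.242, 0.114, -0.009 and 0.277. The study names 4 donor mice without tying a library to one, so p-values may measure technical spread.

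Members, marker and gene lists were chosen with earlier results of these data known. Genes with values per library follow a rule: in each family, for each compound against DMSO, the called gene with the highest and the lowest fold change, or the smallest p where none was called, then the 4 smallest p between the compounds and the 3 smallest p of the wider list per compound. Other genes are named only as calls, or were chosen after their values were seen. The wider list held 175 symbols, of which 172 were listed and 168 tested.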

Additional observations from a re-analysis of the deposited data

Results flagged for a closer look

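There were 7 group values with 1 library far from the other 3 by Dixon's test, out of 105 groups tried (28 named genes, the mean of all 70 genes and the 6 family means, each in 3 groups), where chance alone flags about 5 in 100. MNA replicate 2 accounted for 3 of them. It read 13.9 CPM for Hnrnph3, where the other MNA libraries held 7.10 to 7.96, and 23.6 CPM for Phax, where they held 31.7 to 32.6. Its mean level of SR proteins was 0.037 above the DMSO mean on the log2 scale, against -0.12 to -0.1. MNA replicate 1 gave 3 more, with 10.5 CPM for Snrnp25 (others 12.1 to 12.4), 146.5 CPM for Sf3b3 (others 128.0 to 130.0) and a mean level of LSm proteins of -0.301 (others -0.05 to -0.018). DMSO replicate 1 read 232.9 CPM for Snrnp200, where the other DMSO libraries held 268.1 to 269.5.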

How the results depend on the processing

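RLE scaling in place of TMM left all 6 counts of called splicing genes within 1.5 times. Other settings moved some. With no low-count filter 1 gene was higher with olaparib than with DMSO (1.43%, background 7.55%). In that fit 0 were higher with olaparib than with MNA (background 5.66%). DESeq2 and upper-quartile scaling each called 2 genes higher with olaparib than with MNA (2.86%, backgrounds 12.7% and 11.5%). Fits to the 2 groups alone called 32 genes lower with olaparib (45.7%, background 22.5%). They called 0 higher and 0 lower with MNA, where 0 of all genes were called. Olaparib against MNA gave 0 higher (background 7.64%) and 6 lower (8.57%, background 6.73%). The replicate block gave 2 higher and 22 lower with olaparib, 2 and 12 with MNA, and 1 and 9 between the compounds. It added Snrnp200 (lower with olaparib) and Hnrnph3 and Snrpb (lower with MNA), dropped Lsm6 with MNA and between the compounds, and replaced Lsm2 by Snrnp25 as the higher call between them. With the replicate block and MNA replicate 2 left out, 32 were lower with olaparib (45.7%, background 22.7%). With MNA 6 were higher (8.57%, background 27.8%) and 25 lower (35.7%, background 27.2%) in that fit. There 8 were higher with olaparib than with MNA (11.4%, background 22.7%). In the fits to 2 groups alone without MNA replicate 2, chosen after seeing the data, 5 were higher and 24 lower with MNA, and 8 higher with olaparib than with MNA.

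Leaving out each library in turn gave 0 to 3 higher and 12 to 31 lower with olaparib, 0 to 5 higher and 1 to 25 lower with MNA, and 0 to 9 higher and 6 to 12 lower between the compounds. Of all genes, 9.49% to 22.5% were higher and 7.1% to 21.2% lower with olaparib in those fits. With MNA 3.13% to 27.2% were higher and 0.421% to 26.9% lower. Between the compounds 7.56% to 21.5% were higher and 7.03% to 20.7% lower. For the 31 pairs of a gene and a contrast that the naming rule picked, of which 3 (Srsf6 and Snrpb with MNA, Snrpe with olaparib) were not called, 606 values were recomputed: 499 stayed on their side of the threshold, 95 lost a call, 12 gained one and 0 changed direction. Of the other 53 such pairs of these genes, 8 changed direction on leaving out 1 or more libraries, among them Mbnl2 with olaparib and Sfpq with MNA. The 4 libraries per group, 1 of those of MNA unlike the rest, limit the MNA comparisons, and the cause of the losses was not tested.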
